A study of Homo sapiens with 22 samples.

Results

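The nuclear genes that encode subunits of the mitochondrial respiratory chain were followed through 22 RNA sequencing libraries of HT1080 cells, a human fibrosarcoma line. A fixed pattern of gene symbols for complexes I to V chose them, with no use of their levels. It matched 61 genes by the symbol in the deposited table. Another 15 genes, all of ATP synthase, stood in the table under older symbols and were matched by gene identifier, which gave 76 of the 60675 genes listed. Complex I had 37 members, complex II 4, complex III 9, complex IV 11 and complex V 15. NDUFA4 was counted with complex IV, where its protein resides. All 76 members passed the filter on low counts in each of 7 comparisons, and their lowest count in any library was 33.

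The cells compared were untreated wild-type HT1080 cells (WT), 3 kinds of mutant cells and WT cells given an inhibitor. Lysine deacetylases (KDACs, also called HDACs) remove acetyl groups from lysine residues. In KDAC6H216A and KDAC6H611A cells the catalytic histidine of the first or of the second catalytic domain of KDAC6 was replaced by alanine at the endogenous gene, and in KDAC8H143A cells that of KDAC8 was. The KDAC6H216A cells were a pool of 3 lines, the mutant cells were grown from single colonies, and the KDAC8H143A cells also carried an unintended insertion of 1 base in an intron. WT cells were given 1 µM Tubastatin A, an inhibitor of KDAC6, or 5 µM PCI-34051, an inhibitor of KDAC8, for 2 days, so that the doses differed. There were 4 libraries of WT and of each mutant and 3 of each treatment, which the study describes as biological replicates. Pooling of lines is reported for KDAC6H216A only. In the other mutants the mutation and the colony of origin cannot be told apart. The tests measure spread between libraries of a group, not between colonies.

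The respiratory chain sits in the inner mitochondrial membrane. Complexes I and II take electrons from NADH and succinate, complex III passes them to cytochrome c, and complex IV passes them to oxygen. The proton gradient built by complexes I, III and IV drives complex V, the ATP synthase. Complex II is wholly encoded in the nucleus, while each of the others also holds subunits encoded by mitochondrial DNA, so that its assembly draws on both genomes.

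The libraries differed in more than their groups. Summed expected counts ran from 5248960 to 8998521 in WT, from 6837484 to 17170493 in the mutants and from 24315844 to 29862658 in treated cells. Mitochondrial rRNA took 20.8% to 23.9% of counts in WT, at most 0.0259% in each KDAC8H143A or treated library, 0.195% in KDAC6H216A replicate 1 against up to 15.1% in the rest of that group, and from 0.173% (replicate 4) to 38% (replicate 2) in KDAC6H611A. In KDAC8H143A and treated cells, depth and rRNA content did not overlap those of WT. They were therefore confounded with the group and cannot be told apart from it. In both KDAC6 mutants depth overlapped that of WT and rRNA content varied within the group. It stayed below WT in KDAC6H216A and overlapped WT in KDAC6H611A. The mesenchymal markers VIM, CDH2, MMP14 and PLAU were present in every library, from 25.5 CPM (counts scaled to library size) upward, while EPCAM and CDH1 (epithelial), PTPRC (blood) and PECAM1 (endothelial) stayed at or below 0.659 CPM. HDAC6 averaged 14.2 CPM in WT, 6.37 in KDAC6H216A and 13.2 in KDAC6H611A, and HDAC8 averaged 12.8 in WT and 12.6 in KDAC8H143A. These levels do not check the substitutions, which leave the genes transcribed.

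In KDAC8H143A cells most of the nuclear subunit genes were lower than in WT, with members of all 5 complexes among them. Of the 76 members, 56 fell and 3 rose, and the median log2 fold change was −0.93, a 1.91-fold lower level. Over all genes tested the median was 0.08, with 26.9% called lower and 31.6% called higher. A gene was called where the quasi-likelihood test of edgeR, adjusted by the Benjamini-Hochberg method over all genes tested, gave a p below 0.01. In these bulk libraries a lower level per cell and fewer cells expressing a gene cannot be told apart.

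Complex I had 27 members lower and 2 higher, with a median log2 fold change of −1.03. Its 7 core catalytic subunits, which carry the cofactors and the electron path, had 3 lower and 1 higher with a median of −0.30. Its 30 accessory subunits, which surround that core, had 24 lower and 1 higher with a median of −1.10. In complex II, 2 of 4 fell (median −0.52). In complex III, 7 of 9 fell (median −0.60), and in complex IV 8 of 11 fell (median −1.02). Complex V had 12 of 15 lower and 1 higher (median −0.90), and every member of its peripheral stalk (4) and of its membrane accessory group (3) fell, though ATP5MG of the latter was not called after correction for GC content and length (−0.40, adjusted p = 0.0434). The difference between core and accessory subunits is given as counts and was not tested.

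**Figure D1:**
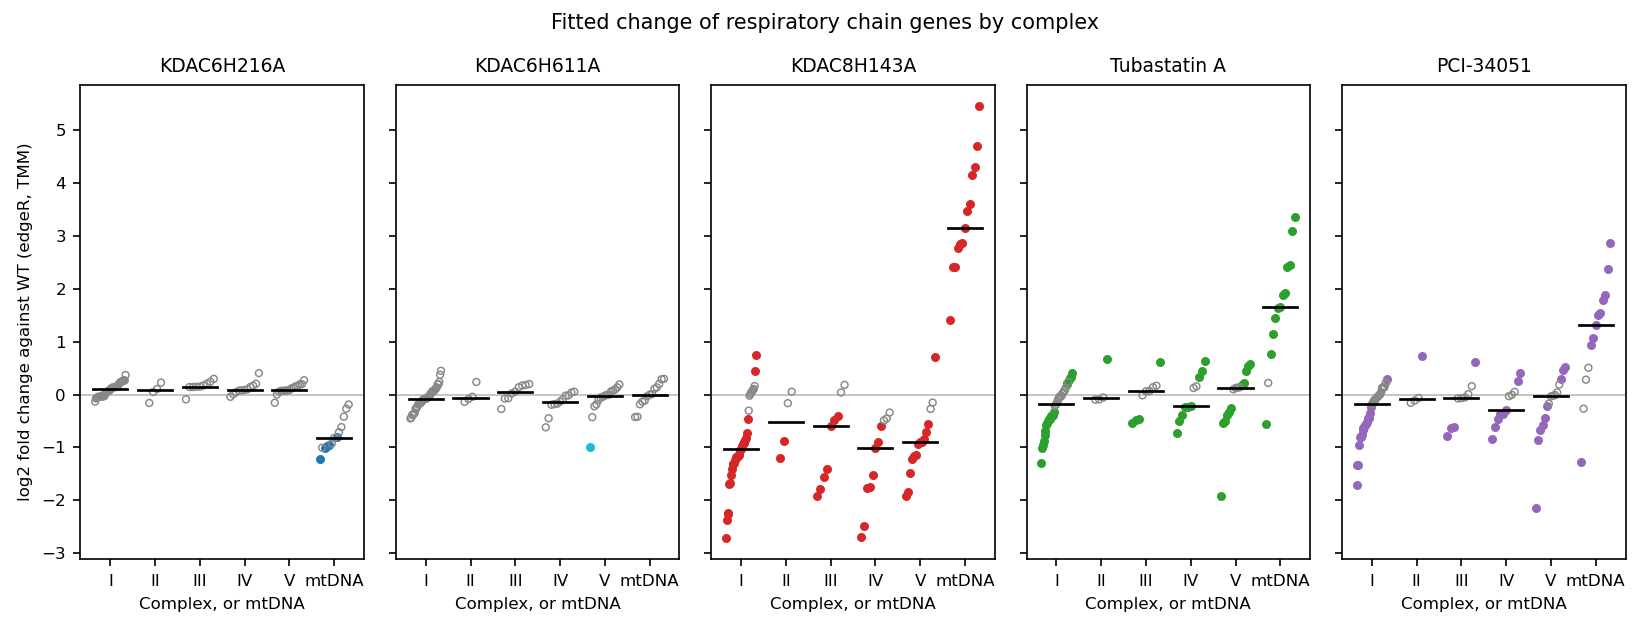
Fitted log2 fold change against WT (y axis) of each nuclear subunit gene by complex (x axis), with the protein genes of mitochondrial DNA (mtDNA) at the right, in 5 panels for the mutant lines and treatments. Filled points passed the threshold, open points did not, and bars are medians; in KDAC8H143A the medians of complexes I to V lie between −1.03 and −0.52 and that of the mtDNA genes at 3.15.

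The summed level of the members gave the same picture library by library. It was 3892, 4598, 4601 and 4364 CPM in the WT libraries and 2350, 2781, 2885 and 2584 in KDAC8H143A, so the groups did not overlap. The means were 4364 ± 333 (SD, n = 4) and 2650 ± 236 (SD, n = 4). By complex, the sum went from 1429 ± 112 to 906 ± 65.6 CPM for complex I, from 298 ± 15.1 to 229 ± 18.7 for complex II and from 604 ± 49.4 to 378 ± 30.3 for complex III. Complex IV went from 731 ± 68.0 to 373 ± 86.6 and complex V from 1301 ± 91.6 to 765 ± 76.7. For every complex each KDAC8H143A library lay below each WT library. As a share of all counts, with the rRNA of WT in the denominator, the sum was still lower, 0.392% ± 0.0259 in WT and 0.301% ± 0.0439 in KDAC8H143A, again without overlap. For complex II this share did overlap, at 0.0255% to 0.0283% in WT and 0.0222% to 0.0297% in KDAC8H143A.

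**Figure D2:**
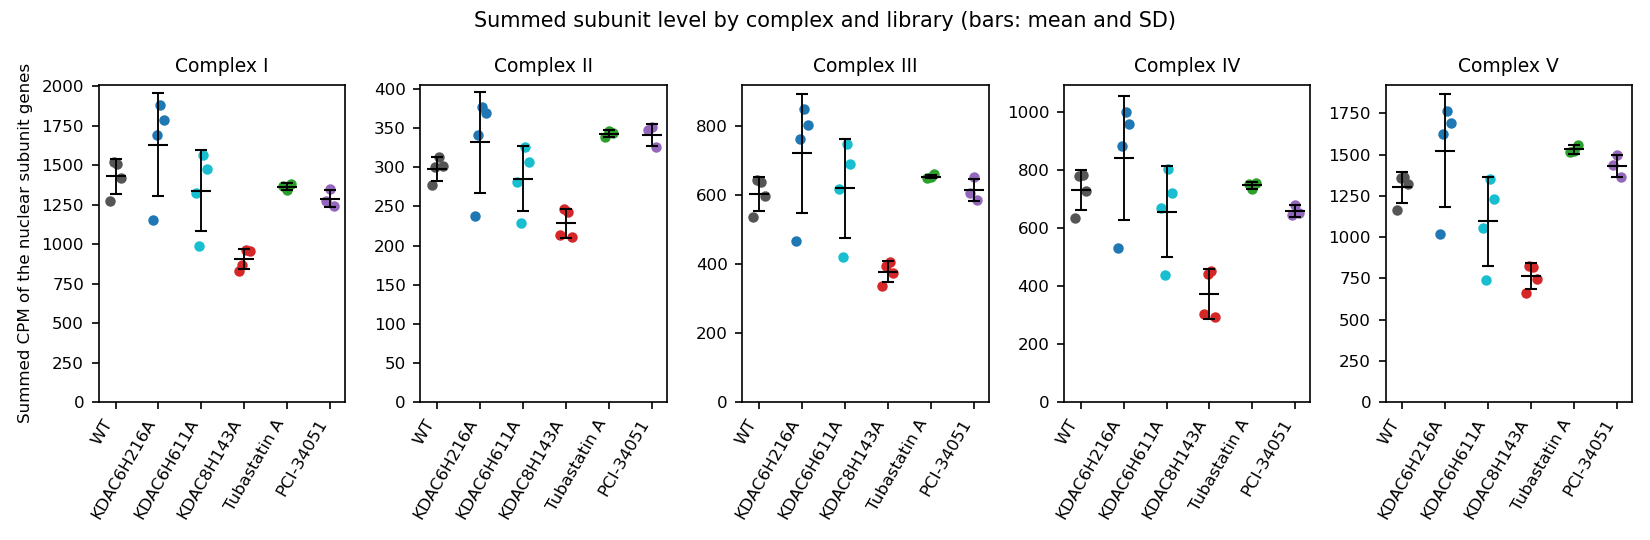
Summed CPM of the nuclear subunit genes (y axis, from 0) in each library, by group (x axis) and complex (panels); points are libraries and bars the mean and SD. All KDAC8H143A points lie below all WT points in every panel, and KDAC6H216A replicate 1 lies below the other libraries of its group.

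The largest fall was that of NDUFB4, an accessory subunit of the membrane arm of complex I. It stood at 26.3, 36.1, 28.4 and 32.4 CPM in WT and at 3.34, 6.73, 3.92 and 3.92 in KDAC8H143A. This was a 6.52-fold fall, or −2.70 on the log2 scale (SE 0.21, adjusted p = 1.22e-06). Members named for the largest changes were chosen only where the groups did not overlap, so that separation is no further result. Over all genes tested, 31.7% were lower and 33.1% higher without overlap in KDAC8H143A. COX7A2, a small subunit of complex IV, was at 31.6, 40.9, 41.2 and 36.5 CPM in WT and at 4.67, 7.99, 6.34 and 2.94 in KDAC8H143A. The log2 fold change was −2.70 (SE 0.23, adjusted p = 2.66e-06). COX7B, another small subunit of complex IV, went from 37.6, 49.1, 43.4 and 38.5 CPM to 5.92, 12.2, 6.48 and 4.00 (log2 fold change −2.48, SE 0.26, adjusted p = 9.59e-06). Here too the separation was a condition of the choice. Reads that RSEM shares out among near-identical copies leave some uncertainty: same-named pseudogenes held 10.6% as many counts as NDUFB4 itself in KDAC8H143A and 2.54% in WT. With such copies added to every member, 56 were lower and 4 higher.

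The 3 members called higher were NDUFS7, NDUFA10 and ATP5F1D. NDUFS7, a core subunit that holds an iron-sulfur cluster, was at 22.5, 33.7, 29.7 and 34.0 CPM in WT and 48.0, 37.4, 48.6 and 62.4 in KDAC8H143A. The groups did not overlap, as the choice required (log2 fold change 0.75, SE 0.17, adjusted p = 0.00173). NDUFA10, an accessory subunit, was at 55.4, 61.0, 63.8 and 53.4 CPM in WT and 83.2, 76.2, 73.5 and 75.8 in KDAC8H143A, also without overlap (0.45, SE 0.10, adjusted p = 0.0012). ATP5F1D, of the central stalk of ATP synthase, had overlapping groups, at 40.4 ± 8.43 CPM in WT and 64.4 ± 14.6 in KDAC8H143A (0.72, SE 0.18, adjusted p = 0.00396). It was chosen for mention after its values were seen. NDUFS7 shares exon bases with antisense transcripts, whose reads cannot be told apart from its own where strand was not used in counting.

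Among members with catalytic or structural roles in each complex, some were called and others were not. NDUFS1, the largest core subunit of complex I, fell from 112 ± 3.38 to 47.8 ± 9.14 CPM (log2 fold change −1.18), whereas NDUFV1, which binds NADH and FMN, was at 0.09 and was not called. In complex II, SDHB, the iron-sulfur subunit, fell (−0.88) and the flavoprotein SDHA was at 0.05, not called, with same-named copies that held 62.4% as many counts in KDAC8H143A and 26.3% in WT. In complex III, UQCRC1 and the Rieske protein UQCRFS1 fell (−0.41 and −0.60), and cytochrome c1 (CYC1) was at 0.18, not called. In complex IV, COX4I1, COX5A and NDUFA4 fell (−0.60, −1.52 and −1.76). In complex V, the F1 subunits ATP5F1A and ATP5F1B fell (−0.72 and −0.56). The 3 genes ATP5MC1, ATP5MC2 and ATP5MC3 encode the same c-ring protein: ATP5MC3 fell (−0.93), and the other two, at −0.15 and −0.27, were not called, but which of them was called changed with the correction for GC content described next.

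The size of the fall moved with base composition. Of the 38 members with GC content below the members' median of 47.4%, 34 were lower and 1 higher (median −1.22), and of the 38 others 22 were lower and 2 higher (median −0.52). With each library corrected for GC content and transcript length, 67 members were lower and 2 higher and the median was −1.06, with 30 of 38 GC-poor and 37 of 38 GC-rich members lower. Under that correction NDUFS7 and ATP5F1D turned to −0.82 and −1.42 and were called lower, as were NDUFV1 (−0.83), SDHA (−0.36) and CYC1 (−0.79), and all 7 core subunits of complex I were lower. ATP5MC1 (−0.78) and ATP5MC2 (−0.88) were then called lower, whereas ATP5MC3 (−0.13, adjusted p = 0.404) and UQCRFS1 (−0.29, adjusted p = 0.0273) were not called. NDUFA10 stayed higher at 0.45. NDUFB4, COX7A2 and COX7B stayed lower at −2.49, −2.73 and −1.99. With total counts in place of TMM scaling, which moved the median of all genes to 0.36, 45 members were lower and 5 higher. UQCRC1 (−0.12), UQCRFS1 (−0.31), COX4I1 (−0.30) and ATP5F1B (−0.27) were then not called. With mitochondrial rRNA and short structural RNA removed before scaling 58 were lower and 3 higher. For these alternatives the shares of all genes called are not given. Of the 56 members called lower, 53 were called in all 8 fits that left out 1 library.

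**Figure D3:**
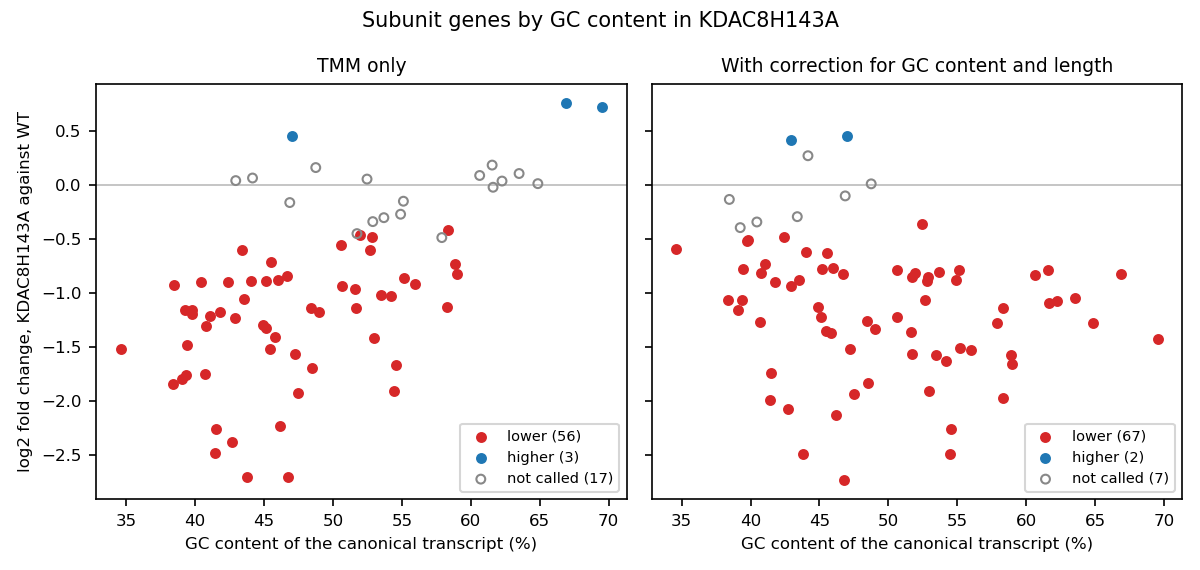
Fitted log2 fold change in KDAC8H143A against WT (y axis) of each of 76 nuclear subunit genes by GC content of its canonical transcript in percent (x axis), with TMM scaling only (left) and with the correction for GC content and length (right). Red points are called lower, blue higher and open points not called; the left panel has 56 lower and 3 higher and the right 67 lower and 2 higher.

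Promoter sequences are shown for members at both ends of the KDAC8H143A change and for ATP5ME and NDUFS6, the members with the largest falls under the inhibitors, with SDHA as a member that was not called. RefSeq promoters (GRCh38.p14, 250 bases before to 50 after the start) were matched for 62 of 76 members and searched on both strands for 3 motifs of factors known to act on respiratory genes. The NRF1 letters GCGCANGCG were in 21 of the 62 (33.9%) and in 8.05% of all 27305 promoters. The ETS letters CCGGAAG were in 19 (30.6%, against 10.7%), and the YY1 letters AAGATGGCG in 8 (12.9%, against 1.85%). The ETS and YY1 letters can share the bases AAG. The NRF1 letters were in 16 of 45 promoters of members lower in KDAC8H143A (35.6%) and in 4 of 15 of members not called (26.7%), a difference that was not tested. The 120 bases before the start are printed 5′ to 3′ on the strand of the gene, and capitals mark the NRF1 letters or their reverse complement. They stand at chr3:120596216-120596335 (plus strand) for NDUFB4, chr6:75250299-75250418 (minus) for COX7A2, chr19:1383787-1383906 (plus) for NDUFS7, chr5:218200-218319 (plus) for SDHA, chr4:674277-674396 (minus) for ATP5ME and chr5:1801287-1801406 (plus) for NDUFS6.
NDUFB4: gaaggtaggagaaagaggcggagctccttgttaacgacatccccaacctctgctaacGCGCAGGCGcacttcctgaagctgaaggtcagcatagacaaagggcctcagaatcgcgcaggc
COX7A2: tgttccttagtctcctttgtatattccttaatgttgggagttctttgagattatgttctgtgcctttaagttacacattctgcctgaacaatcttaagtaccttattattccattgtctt
NDUFS7: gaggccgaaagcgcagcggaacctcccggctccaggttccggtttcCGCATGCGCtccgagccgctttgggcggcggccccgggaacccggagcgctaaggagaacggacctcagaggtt
SDHA: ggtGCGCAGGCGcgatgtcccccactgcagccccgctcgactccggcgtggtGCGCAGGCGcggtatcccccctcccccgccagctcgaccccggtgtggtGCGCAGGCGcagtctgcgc
ATP5ME: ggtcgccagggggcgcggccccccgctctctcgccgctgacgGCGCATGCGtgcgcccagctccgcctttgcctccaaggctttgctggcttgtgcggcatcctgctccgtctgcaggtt
NDUFS6: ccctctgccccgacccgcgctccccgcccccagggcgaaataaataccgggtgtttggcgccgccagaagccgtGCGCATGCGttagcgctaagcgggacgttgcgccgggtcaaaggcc
The letters occurred in members that fell (NDUFB4, ATP5ME, NDUFS6), in NDUFS7 and, 3 times, in SDHA. No match was found in this stretch of COX7A2. The printed stretches were picked and hold the letters more often than the members' promoters do (33.9%). Of the stretches read but not printed, those of UQCRC1, UQCRFS1 and ATP5MC2 held a match in their 120 bases. Those of NDUFS1, NDUFV1, SDHB, COX4I1, COX5A, ATP5F1A, ATP5MC1, NDUFA10, COX7B and UQCRC2 held none.

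In treated cells members moved in both directions. With Tubastatin A, 16 members rose and 31 fell, with a median log2 fold change of −0.08, where 29.3% of all genes were higher and 28.6% lower. With PCI-34051, 8 rose and 33 fell (median −0.12), where 25.5% of all genes were higher and 25.6% lower. Both comparisons used the same WT libraries. The summed level was 4641 ± 55.2 CPM (n = 3) with Tubastatin A and 4335 ± 182 (n = 3) with PCI-34051, beside 4364 ± 333 (n = 4) in WT. As a share of all counts it was 0.493% and 0.476% beside 0.392% in WT, but as a share of protein-coding counts it was 0.554% and 0.534% beside 0.624%, so the direction depended on the denominator.

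By complex, Tubastatin A gave 6 higher and 16 lower in complex I, 1 and 0 in complex II, 1 and 3 in complex III, 3 and 6 in complex IV and 5 and 6 in complex V. PCI-34051 gave 1 and 18, 1 and 0, 1 and 3, 2 and 6, and 3 and 6 in the same order. The split of these calls depended on the scaling. With total counts in place of TMM, 42 members were higher and 9 lower with Tubastatin A and 40 and 14 with PCI-34051, as the median of all genes moved to 0.35 and 0.38. With the correction for GC content and length the calls were 30 and 14, and 18 and 16. One fit of all 6 groups, which shares a single estimate of the spread, called 4 higher and 6 lower with Tubastatin A and 3 higher and 12 lower with PCI-34051. No shares of all genes called are given for these alternatives. The WT libraries held 20.8% or more mitochondrial rRNA and the treated libraries almost none, and the part of this in the split was not tested.

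The members that stayed lower under each of these scalings included ATP5ME, NDUFS6 and NDUFS5. ATP5ME encodes the small e subunit in the membrane part of ATP synthase and is the shortest member, at 303 bases. It was at 27.5, 29.3, 27.7 and 29.1 CPM in WT, at 8.69, 8.50 and 7.32 with Tubastatin A and at 6.33, 6.24 and 7.93 with PCI-34051. The choice again required groups without overlap, which 24.1% of all genes met as lower with Tubastatin A and 22.9% with PCI-34051. The log2 fold changes were −1.91 (SE 0.09, adjusted p = 6.23e-13) and −2.15 (SE 0.10, adjusted p = 1.42e-11), which the correction for GC content and length reduced to −0.88 and −1.12. In KDAC8H143A it was at 7.01, 7.36, 8.47 and 6.29 CPM (−1.91, SE 0.12, adjusted p = 4.71e-07). Its exons share 571 bases with MYL5 on the opposite strand, so its counts are uncertain where strand was not used. All 3 membrane accessory genes of ATP synthase (ATP5ME, ATP5MF and ATP5MG) fell in both treatments, but under the correction ATP5MF turned to 0.18 and 0.11, neither called, and with total counts ATP5MG with Tubastatin A was not called either (−0.03).

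NDUFS6, an accessory subunit that binds zinc, was at 29.8, 35.1, 36.0 and 34.5 CPM in WT, at 16, 15.3 and 14.0 with Tubastatin A and at 8.95, 10.1 and 14.3 with PCI-34051. It too was chosen for groups without overlap. The log2 fold changes were −1.29 (SE 0.07, adjusted p = 1.94e-11) and −1.71 (SE 0.13, adjusted p = 4.09e-09), or −0.71 and −1.15 after the correction. NDUFS5, an accessory subunit on the intermembrane side, went from 58.2 ± 5.01 CPM in WT to 31.5 ± 1.32 with Tubastatin A and 24.8 ± 2.07 with PCI-34051, with log2 fold changes of −1.01 and −1.34. NDUFV1, which was not called in KDAC8H143A, fell with Tubastatin A (−0.68, SE 0.05, adjusted p = 5.34e-10) and with PCI-34051 (−0.64, SE 0.06, adjusted p = 1.1e-07), and stayed lower under both alternatives.

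Among the rises, SDHC, a membrane anchor of complex II, was at 52.1, 52.8, 53.4 and 57.2 CPM in WT, at 88.8, 94.7 and 94.2 with Tubastatin A and at 96.2, 99.6 and 91.5 with PCI-34051. SDHC was chosen for groups without overlap, which 39.8% and 36.2% of all genes met as higher with Tubastatin A and PCI-34051. Its log2 fold changes were 0.67 (SE 0.05, adjusted p = 3.67e-10) and 0.73 (SE 0.05, adjusted p = 3.77e-09). UQCRC2, a core protein of complex III, rose by 0.61 and 0.62, and ATP5F1B, the catalytic beta subunit of ATP synthase, by 0.58 and 0.53. COX7A2 and NDUFB4, with the largest falls in KDAC8H143A, were higher here: COX7A2 by 0.64 and 0.41 and NDUFB4 by 0.42 and 0.30. SDHC, UQCRC2, ATP5F1B, COX7A2 and NDUFB4 stayed higher with both treatments under total counts and under the correction.

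**Figure D4:**
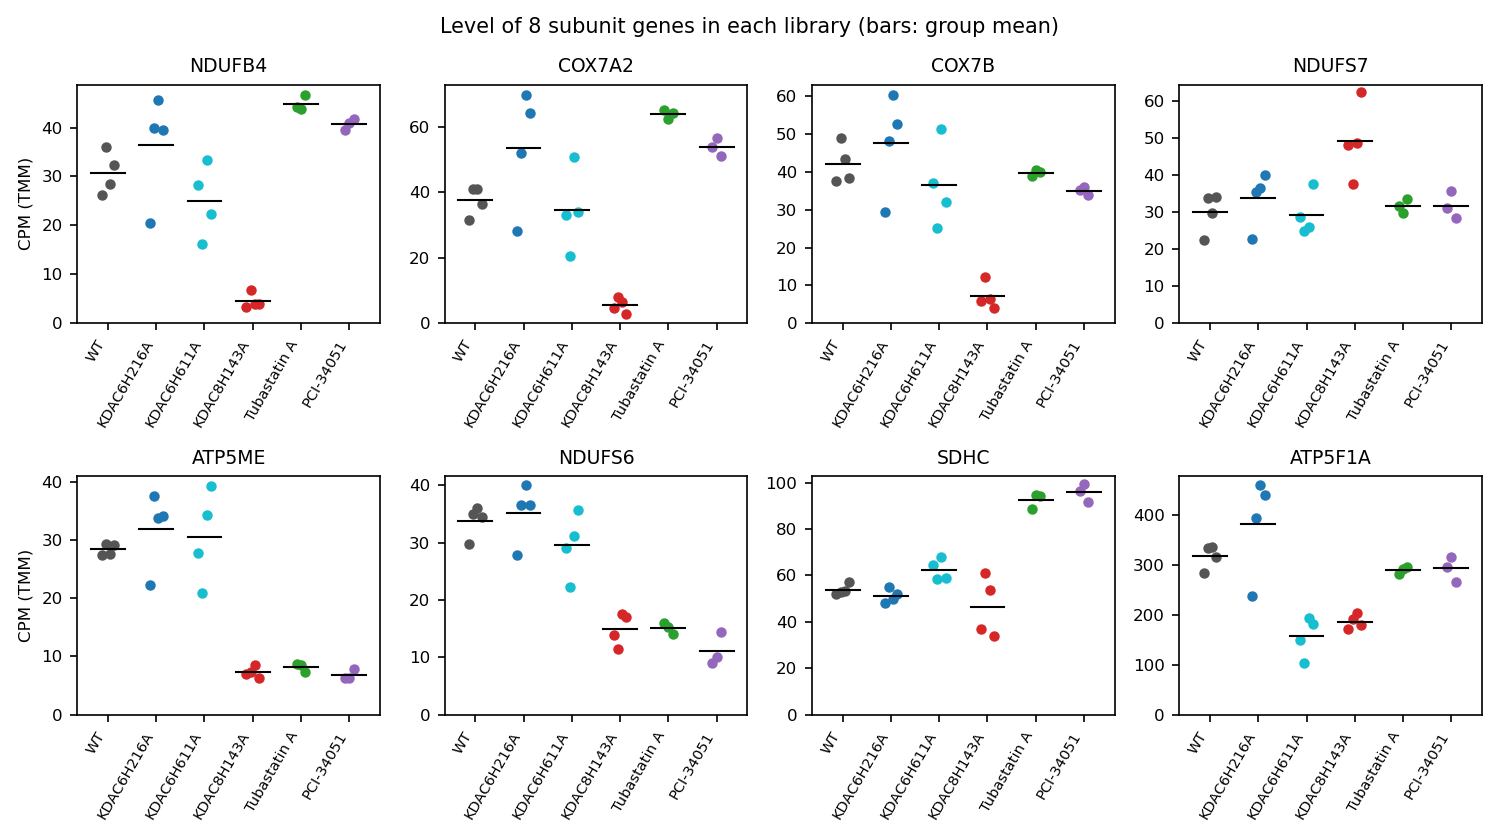
CPM (y axis, from 0) of 8 nuclear subunit genes in each library by group (x axis); points are libraries and bars group means. NDUFB4, COX7A2 and COX7B are lowest in KDAC8H143A, ATP5ME and NDUFS6 are low in KDAC8H143A and in both treatments, SDHC is high in both treatments, and ATP5F1A is low in KDAC6H611A and KDAC8H143A.

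The treatments were also set against each other, at their different doses. Tubastatin A had 8 members higher than PCI-34051 and 0 lower, with a median of 0.11, where 3.45% of all genes were higher and 2.2% lower. The 8 were NDUFA7 (0.48), COX7C (0.34), NDUFS5 (0.33), ATP5F1E (0.31), UQCRB (0.30), ATP5PF (0.30), ATP5MC3 (0.24) and COX7A2 (0.23), named after their values were seen. Of these, 1 was called in all 6 fits that left out a library, and none in a fit of all 6 groups. By the test used, 0 were lower, DESeq2 also called 0 lower, and 37 members of either direction had an unadjusted p below 0.05. The share of all genes below that unadjusted p is not given, so the 37 are listed only. KDAC8H143A cells against PCI-34051, both aimed at KDAC8, had 48 members lower and 2 higher (median −0.95), where 30.3% of all genes were lower and 27.8% higher. The rRNA share of both groups was near 0, but their depth differed (11010779 to 17170493 counts against 24315844 to 28676574). The share of mtDNA protein genes differed as well, at 6.43% to 14.8% against 2.57% to 4.19%. The part of these differences was not tested. NDUFB4 and COX7A2 were again among the lowest, at −3.19 and −3.30, and the 2 higher, NDUFB1 (0.68) and NDUFS7 (0.59), turned to −0.03 (not called) and −1.06 (called lower) under the correction for GC content and length, which gave 63 lower and 1 higher. Of the 7 fits that left out a library, 3 called NDUFB1 higher and 2 called NDUFS7 higher.

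In KDAC6H216A cells no member was called in either direction, where 0.214% of all genes were higher and 0.621% lower. The median was 0.11, 3 members (NDUFA2, SDHC and NDUFV2) had an unadjusted p below 0.05, and DESeq2 called 0. The share of all genes below that unadjusted p is not given, so the 3 are listed only. Replicate 1 stood apart, with a summed level of 3408 CPM beside 5304, 5871 and 5605 in the others and 0.195% mitochondrial rRNA beside 13.1% to 15.1%. Without it, 32 members were higher and 0 lower, with a median of 0.23, where 12.2% of all genes were higher and 13.8% lower. These were 12 of complex I, 2 of II, 7 of III, 4 of IV and 7 of V. The largest were COX7A2 (0.57), NDUFA2 (0.45), UQCRFS1 (0.42), SDHB (0.41) and ATP5MC3 (0.41). COX7A2 was at 28.2 CPM in replicate 1 and at 52.2, 69.7 and 64.4 in the others, which lay above all WT libraries while replicate 1 lay below them. The part of rRNA content or depth in this was not tested.

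**Figure D5:**
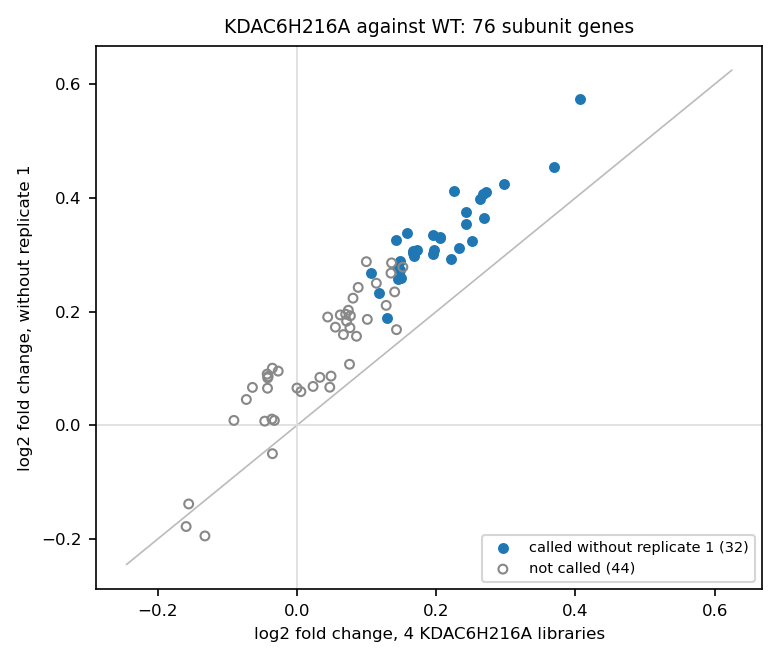
Fitted log2 fold change of 76 nuclear subunit genes in KDAC6H216A against WT with all 4 mutant libraries (x axis) and without replicate 1 (y axis), the line marking equal values. Filled points (32) passed the threshold without replicate 1, and none passed with it.

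In KDAC6H611A cells 1 member fell and 0 rose, where 6.24% of all genes were lower and 6.08% higher. The median was −0.06, and 11 members had an unadjusted p below 0.05, for which no share of all genes is given. The member was ATP5F1A, the alpha subunit of the F1 head, whose gene lies on chromosome 18. It was at 283, 334, 336 and 316 CPM in WT and at 149, 104, 193 and 181 in KDAC6H611A. Groups without overlap were part of the choice, which 13.7% of all genes met as lower. The log2 fold change was −0.99 (SE 0.15, adjusted p = 0.000462), or 1.99-fold lower. With total counts its adjusted p was 0.0155. In KDAC6H216A the same gene was at 238, 393, 460 and 440 CPM and was not called. NDUFV2, also on chromosome 18, was not called in KDAC6H611A. Whether genes near ATP5F1A changed with it was not tested. Without replicate 2, whose summed level was 2816 CPM and mitochondrial rRNA 38%, 2 members were higher and 3 lower, where 9.58% of all genes were higher and 9.83% lower. These were NDUFB9 (0.58) and NDUFV3 (0.40), and ATP5F1A (−0.87), NDUFS1 (−0.36) and NDUFA10 (−0.37).

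The rest of the pathway was read from lists of related genes. The 13 protein genes of mitochondrial DNA, which encode the other subunits of complexes I, III, IV and V, all rose in KDAC8H143A (median log2 fold change 3.15), from 1.41 for MT-CO3 to 5.46 for MT-ND6. They took 6.43% to 14.8% of counts there and 1.14% to 1.27% in WT, while the nuclear members had a median of −0.93. Over all genes, 31.6% were higher in KDAC8H143A. With Tubastatin A 11 of the 13 rose and 1 fell (median 1.66), where 29.3% of all genes were higher and 28.6% lower. With PCI-34051 9 rose and 1 fell (median 1.31), where the shares were 25.5% and 25.6%. In KDAC6H216A 5 fell (median −0.82), where 0.621% of all genes were lower. Its replicate 1 held 1.20% of counts in the 13 genes, beside 0.699% to 0.857% in the rest of its group. In KDAC6H611A none of the 13 was called, where 6.08% of all genes were higher and 6.24% lower. MT-ND6 lies on the other strand and several of these genes overlap, so single values are uncertain where strand was not used.

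Of 53 assembly factors, which build the complexes but are not part of them, 8 rose and 21 fell in KDAC8H143A (median −0.39), where 31.6% of all genes were higher and 26.9% lower. Examples are SDHAF4 (−2.78) and NDUFAF4 (−2.07), for complexes II and I, and COX19 (1.63) and BCS1L (1.14), for complexes IV and III. With Tubastatin A 10 rose and 16 fell, where 29.3% of all genes were higher and 28.6% lower, and with PCI-34051 7 rose and 17 fell, where the shares were 25.5% and 25.6%. The falls with Tubastatin A were near that background. In KDAC6H611A 1 rose and 1 fell, where 6.08% of all genes were higher and 6.24% lower, and in KDAC6H216A none was called. Of 7 tested carriers and feeding dehydrogenases, 5 fell in KDAC8H143A, among them CYCS, cytochrome c itself (−1.42), and SQOR, which oxidises sulfide (−1.92). ETFDH, which passes electrons from fatty acid oxidation to ubiquinone, rose with Tubastatin A (1.04) and PCI-34051 (0.97). Of 9 tested subunits or isoforms outside the chosen set, 2 rose in KDAC8H143A, COX7A1 (3.06) and NDUFA4L2 (1.62), and 5 fell. In each other comparison with WT 8 were tested, so a gene may have passed the filter on low counts only through its KDAC8H143A level. These rises are therefore listed only.

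Of 12 transcriptional regulators of the chain, 5 rose and 3 fell in KDAC8H143A, where 31.6% of all genes were higher and 26.9% lower, so these counts are listed only. Those that rose were POLRMT, the mitochondrial RNA polymerase (1.58), the coactivators PPARGC1B (1.16) and PPRC1 (1.10), ESRRA (0.57) and NRF1 (0.39). Those that fell were TFAM, which packages mitochondrial DNA (−1.33), TFB1M (−1.16) and GABPA (−0.83). With each treatment 2 of the 12 rose and 4 fell. Of all genes, 29.3% were higher and 28.6% lower with Tubastatin A, and 25.5% and 25.6% with PCI-34051, so these too are listed only. GABPA rose by 0.60 and 0.63, YY1 rose by 0.17 and 0.18, and NRF1, PPRC1, PPARGC1B and TFAM fell. In KDAC6H611A, GABPB1 alone was called (−0.41), where 6.08% of all genes were higher and 6.24% lower.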

How the data were processed

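RNA from HT1080 cells was depleted of rRNA by the authors and sequenced as paired ends. They trimmed reads with Trimmomatic 0.39, aligned them to GRCh38 with Bowtie2 2.4.5 and counted them with RSEM 1.3.3. The annotation release and strand setting are not given in the sources used here. The deposited values are RSEM expected counts per gene, not scaled for depth or length.

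Expected counts were rounded. Groups and replicate numbers came from the sample titles. Each mutant and treatment was compared with WT, and PCI-34051 with Tubastatin A and KDAC8H143A, in fits of 2 groups with edgeR 4.0.16 (TMM, filterByExpr, glmQLFit, glmQLFTest) in R 4.3.3. Values were adjusted by Benjamini-Hochberg over all genes tested, with a threshold of 0.01. SE is the log2 fold change over the square root of F. CPM used TMM factors over all 22 libraries, so CPM ratios differ slightly from fitted folds. Length, GC content, copies and exon overlaps came from GENCODE 44 on the same build, and 42 of 76 members share exon bases with another gene. Alternatives were DESeq2 1.42.0, total counts, no filter, rRNA removed, GC and length correction (mgcv 1.9.3), the replicate number as block, all 6 groups in 1 fit, copies added, a threshold of 0.05 and leaving out each library. Shares of all genes called are given for the main fits and for those without KDAC6H216A replicate 1 or KDAC6H611A replicate 2. They are not given for the other alternatives or for unadjusted p. The code was tested on simulated data. Tables and plots used python 3.11.15, pandas 2.3.3 and matplotlib 3.10.9.

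Members and lists were chosen with earlier results of these data known. Named members were 16 representatives, of which 1 is not reported here, and per comparison with WT up to 3 rises and 3 falls, largest among those past the threshold with at least 1 CPM and no overlap between groups. Others were named where few were counted or after their values were seen.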

Additional observations from a re-analysis of the deposited data

Results flagged for a closer look

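In 7 of 128 groups of 4 libraries, 1 library stood apart from the other 3 by Dixon's criterion, which chance alone meets in about 1 of 20 groups. KDAC6H216A replicate 1 was the low library for COX4I1 (134 CPM), ATP5F1B (277 CPM) and ATP5MC2 (59.3 CPM). WT replicate 1 was low for COX4I1 (145 CPM) and COX5A (29.8 CPM). KDAC8H143A replicate 3 was low for SDHB (20.9 CPM), and KDAC6H611A replicate 4 was high for NDUFA10 (49.5 CPM, beside 43.7 in each of the others).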

How the results depend on the processing

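Counts of called members in KDAC8H143A against WT or PCI-34051 stayed within 1.5 times under every alternative run. In KDAC6H611A the count of 1 became 3 with DESeq2, 0 with total counts, 5 without a filter, 2 in the fit of all 6 groups and 6 at a threshold of 0.05, and 1 to 5 with a library left out (5 without replicate 2, 4 without replicate 3). In KDAC6H216A leaving out a library gave 0 to 32. The fit of all 6 groups called 10 members with Tubastatin A (4 higher) and 15 with PCI-34051 (3 higher). Tubastatin A against PCI-34051 had 5 with total counts, 14 without a filter, 5 with the replicate block and the GC and length correction, 0 in the fit of all 6 groups, 15 at a threshold of 0.05 and 1 to 9 with a library left out. The causes were not tested.

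In comparisons with WT, these log2 fold changes of named members changed sign where the value was called before or after the change of setting. Sign changes in which neither value was called are not listed. In KDAC8H143A, with the GC and length correction, with or without the block: NDUFV1 (−0.83, −0.83), SDHA (−0.36, −0.36), CYC1 (−0.79, −0.79) and NDUFS7 (−0.82, −0.81). With Tubastatin A and total counts: NDUFS1 (0.32), SDHA (0.26), SDHB (0.25), CYC1 (0.34), COX4I1 (0.12), ATP5F1A (0.11), ATP5MC1 (0.015), NDUFS7 (0.29), NDUFA10 (0.26) and COX7B (0.14). With the correction: CYC1 (0.16), COX4I1 (0.14, with the block 0.15) and ATP5MC1 (0.13, with the block 0.11). With PCI-34051 and total counts: NDUFS1 (0.36), SDHA (0.32), SDHB (0.23), UQCRFS1 (0.32), CYC1 (0.33), COX4I1 (0.030), ATP5F1A (0.17), ATP5MC3 (0.37), NDUFS7 (0.35) and COX7B (0.011), and with the correction ATP5MC1 (0.0066).

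Same-numbered libraries deviated together only weakly. The correlations of 24 pairs over the 7 comparisons ran from −0.056 to 0.17 (3 above 0.1) on the log2 CPM scale of edgeR and from −0.22 to 0.38 on the scale of log2(CPM + 1), and on neither scale was every pair of a comparison above 0.1. On the latter scale, with a library counted once in each comparison it entered, 17 of 49 correlated best with their own number. They share only a number. The replicate block called 0 members in KDAC6H216A and 1 in KDAC6H611A. It called 61 in KDAC8H143A, 41 with Tubastatin A, 38 with PCI-34051, 6 between the treatments and 51 in KDAC8H143A against PCI-34051. Depth was lowest in WT, where 3 counts were worth up to 0.572 CPM, far below the members' levels. With 3 or 4 libraries a group, small differences may be missed.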
